A study of Mus musculus with 2 samples.

Results

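The genes examined here encode the rod phototransduction cascade, and were taken by symbol from the feature lists of both libraries: Gnat1, Gnb1, Gngt1, Pde6a, Pde6b, Pde6g, Cnga1, Cngb1 and Sag. They are 9 of 32286 features, and all 9 were measured in rods and in every other cell class. Where a pair of values stands below, it gives first the GFP-labelled library and then the sponge-labelled library. Levels are counts of unique molecular identifiers (UMIs, which mark single captured RNA molecules) scaled to a common total of all UMIs of the same cells, in the usual unit CPM.

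A rod turns light into an electrical signal through a short chain of proteins. A light-activated visual pigment activates the G protein transducin, made of an alpha subunit (Gnat1), a beta subunit (Gnb1) and a gamma subunit (Gngt1). Transducin then releases the catalytic subunits of the cyclic GMP phosphodiesterase (Pde6a and Pde6b) from their inhibitory subunit (Pde6g), the cyclic GMP level falls, and the cyclic nucleotide-gated channel (Cnga1 and Cngb1) closes. Rod arrestin (Sag) binds the phosphorylated pigment and ends its activity. Loss of several of these genes causes rod degeneration or night blindness.

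Single-cell RNA was captured in droplets (10x Genomics) and counted at transcript 3′ ends, from the optic cup of Abca4KO mice, which lack a retinal lipid transporter of photoreceptor outer segments. Mice of both groups carried the knockout, and no library from unaltered mice was analysed here. The GFP-labelled library came from eyes treated with AAV2.8-GFP and the sponge-labelled library from eyes treated with AAV2.8-Sponge.mir181. A sponge is a transcript with binding sites for a microRNA, here miR-181a and miR-181b. Each group was 1 library, and the labels used here state neither the number of mice in each nor the promoter of each vector. The series text gives subretinal injection at 2 months of age, with the contralateral eye as control, and collection 4 months later. Each sample is labelled as 4 months old, and the disagreement was not resolved.

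The libraries held 123040365 and 132067896 UMIs, and 39285 and 23200 barcodes passed the cell filter. Median depth was 2415 and 2980.5 UMIs per cell. The vector transcript eGFP went against the label, with 12 UMIs in kept cells of the GFP-labelled library and 5484 in the sponge-labelled library. The labels do not say whether the sponge vector carries eGFP, and whether the labels were exchanged could not be settled. If they were, every direction given below between the libraries would turn. The libraries shared 287 kept barcodes, and leaving these out changed the 9 ratios in rods by less than their counting error. With 1 library per group no test was possible, intervals cover counting error only, and vector, eye, mouse and library preparation cannot be told apart.

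The sequences below are shown because the study altered miR-181 and because most of the 9 genes had a higher level in rods of one library. The mature microRNAs, from RefSeq, have their seed (bases 2 to 8) in capitals, and the seed is the same in both.
miR-181a-5p: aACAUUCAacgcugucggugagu
miR-181b-5p: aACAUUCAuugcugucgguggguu
A match to this seed, TGAATGT on the sense strand, occurred in the annotated 3′ UTR of 1 of the 9 genes, against 17.1% of 20971 genes with a 3′ UTR. The gene was Cnga1, and the match is in capitals.
Cnga1 match: gagaaaggcgcTGAATGTcagagaatagg

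RefSeq promoters (build GRCm38.p6, 250 bases before to 50 after the start) were present for 6 of the 9 genes: Sag, Gnb1, Cnga1, Pde6b, Gngt1 and Cngb1. They were searched on both strands for TAATCC, the core bound by the photoreceptor factor CRX, and for TGCTGA, a half-site of the rod factor NRL. These letters do not overlap each other in the stretches printed. TAATCC was found in 4 of 6 genes and in 7.16% of 27025 promoters. TGCTGA was found in 2 of 6 genes and in 19.1% of promoters. A match is a description of letters and shows no binding. The bases before the start are printed for Sag (chr1:87803430-87803679, plus strand), Pde6b (chr5:108388123-108388372, plus strand) and Cngb1 (chr8:95306586-95306835, minus strand), with matches on either strand in capitals (GGATTA is TAATCC on the other strand).
Sag: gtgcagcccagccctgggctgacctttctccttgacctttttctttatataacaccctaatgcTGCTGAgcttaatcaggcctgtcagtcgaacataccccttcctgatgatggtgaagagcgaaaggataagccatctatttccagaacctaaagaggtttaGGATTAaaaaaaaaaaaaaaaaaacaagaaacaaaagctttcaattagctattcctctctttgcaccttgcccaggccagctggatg
Pde6b: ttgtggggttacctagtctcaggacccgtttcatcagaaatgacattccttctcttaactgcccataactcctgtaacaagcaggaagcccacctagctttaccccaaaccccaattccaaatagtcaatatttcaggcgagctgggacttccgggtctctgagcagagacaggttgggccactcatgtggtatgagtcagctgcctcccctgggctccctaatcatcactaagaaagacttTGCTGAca
Cngb1: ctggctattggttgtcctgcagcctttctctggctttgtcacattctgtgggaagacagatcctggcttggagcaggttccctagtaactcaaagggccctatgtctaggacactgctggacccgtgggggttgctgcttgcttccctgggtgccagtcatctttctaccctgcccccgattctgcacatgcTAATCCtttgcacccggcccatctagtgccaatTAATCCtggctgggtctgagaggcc
The match of Sag to TAATCC began 87 bases before the start, and that of Sag to TGCTGA 187 bases before it. Cngb1 had TAATCC at 58 and 25 bases before its start, and Pde6b had TGCTGA at 8 bases. For Gngt1 (match 44 bases before the RefSeq start used) and Cnga1 (228 bases) only the surrounding bases are shown. These are chr6:3993952-3993981 (plus strand) and chr5:72642963-72642992 (minus strand). Both stretches lie inside the GENCODE gene spans given below, since the RefSeq and GENCODE starts of these genes differ. They are thus not upstream of the GENCODE genes.
Gngt1: tcatattaggggGGATTAtgaagaagcttt
Cnga1: agtgtctcatttTAATCCtaatgataaact

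Cells were clustered without the 9 genes, and clusters were named from marker genes that include none of them. Clusters with the rod profile (Nrl and Nr2e3, rod transcription factors, and Prph2, Rom1 and Rp1 of the outer segment) are called rods. They held 3884 cells (9.89% of kept cells) in the GFP-labelled library and 5796 (24.98%) in the sponge-labelled library. The number depended on the clustering: it was 2313 and 5536 at resolution 2, 2637 and 5792 with the 9 genes forced into the clustering, and 7415 and 8125 with each cell named by its highest marker score. All 13 rod markers, which were used to name these clusters, were higher in rods than in the other named classes of each library. Their summed level was 9263 CPM in rods and 3547 CPM in the other named classes in the GFP-labelled library, and 11796 and 1955 CPM in the sponge-labelled library, so rod RNA was present in every class. Compared in the same way, 5 of 5 erythroid markers were also higher in rods of the GFP-labelled library (summed 1156 against 607 CPM). In the sponge-labelled library 1 of 5 was (170 against 369 CPM). Of ganglion cell markers 6 of 7 were higher in rods of each library, and of amacrine markers 5 of 9. B and plasma cell markers gave 5 of 6 and 2 of 6, whereas Müller glia markers gave 0 of 9 in each library. Median depth of rods was 1631.5 and 2341 UMIs, and mitochondrial genes took 13.6% and 8.64% of their UMIs. Clusters given no name held 47.2% and 40.8% of kept cells.

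Of the 9 genes, 8 had a higher CPM in rods of the sponge-labelled library and Gngt1 had a lower one, against 9021 of 15804 measured genes above 0, or 1231 of 1859 genes of at least 100 CPM. With rods thinned to 500, 1000 or 2000 UMIs 7 of 9 were higher, since Cnga1 was then below 0 (-0.09, -0.03 and -0.06). None differed by 1.5-fold in either direction, although Gngt1 passed that fold with rods thinned to 1000 UMIs (log2 ratio -0.61). Over 15804 genes measured in rods (at least 20 UMIs), 9.09% were past 1.5-fold higher and 13.2% past 1.5-fold lower, and over 1859 genes of at least 100 CPM these shares were 6.13% and 8.12%. The median log2 ratio, sponge over GFP, was 0.30 over the 9 genes, 0.08 over all measured genes and 0.18 over genes of at least 100 CPM.

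**Figure D1:**
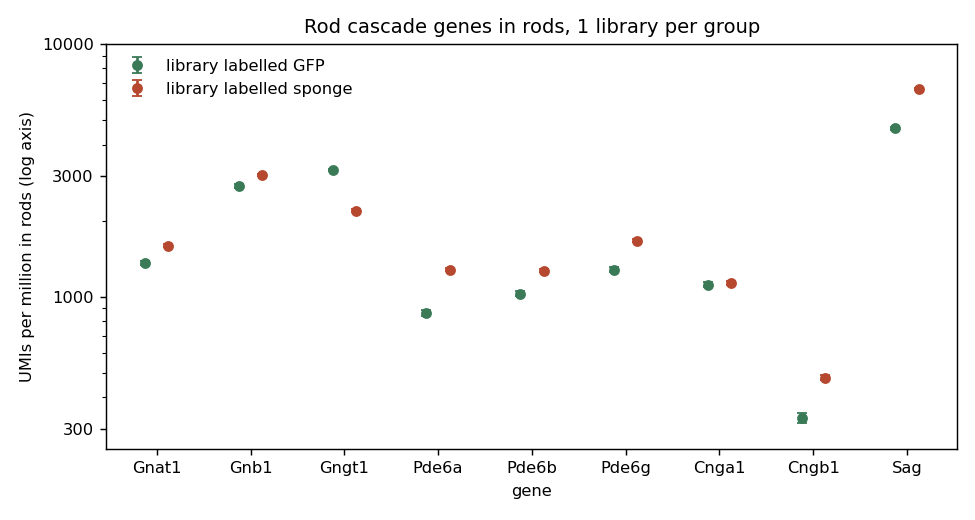
CPM of each gene in rods (log axis), with points for the GFP-labelled library and the sponge-labelled library and bars for 95% exact Poisson intervals, often smaller than the point. Gngt1 sits at 3172 and 2189 CPM and is the gene that is lower in the sponge-labelled library, while Sag is the highest of the 9 in each library.

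Transducin genes did not move together. Gnat1 (chromosome 9, 107674474 to 107679712, minus strand, GENCODE gene models on GRCm38, as all coordinates of genes here) was at 1360 CPM (95% interval 1333 to 1388) and 1593 CPM (1573 to 1614), a log2 ratio of 0.23 (0.19 to 0.26). Gnb1 (chromosome 4, 155491361 to 155559269, plus strand), whose product is also used outside photoreceptors, was at 2743 and 3029 CPM, a log2 ratio of 0.14 (0.12 to 0.17). Gngt1 (chromosome 6, 3993792 to 3997436, plus strand) was at 3172 CPM (3129 to 3214) and 2189 CPM (2166 to 2213), a log2 ratio of -0.53 (-0.56 to -0.51). Gngt1 was thus the highest transducin gene in rods of the GFP-labelled library and stood below Gnb1 in the sponge-labelled library. The CPM is a share of all UMIs of the rod: per rod, Gngt1 had a mean of 5.49 and 5.69 UMIs, and Gnat1 2.35 and 4.14. The count ratio of Gngt1 to Gnat1 was 2.33 (2.27 to 2.39) and 1.37 (1.35 to 1.40). Such ratios compare 3′ tag counts of different genes, not transcripts per length.

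All phosphodiesterase genes were higher in rods of the sponge-labelled library when all rods were summed. Pde6a (chromosome 18) was at 860.5 CPM (838.5 to 883.0) and 1280 CPM (1262 to 1299), a log2 ratio of 0.57 (0.53 to 0.62), the highest of the 9 in rods as named here. Pde6b (chromosome 5, 108388391 to 108432397, plus strand) was at 1027 and 1265 CPM, a log2 ratio of 0.30 (0.26 to 0.34). Pde6g (chromosome 11, 120447605 to 120453500, minus strand) was at 1278 and 1664 CPM, a log2 ratio of 0.38 (0.35 to 0.42). The catalytic pair were nearer to each other in the sponge-labelled library, with a Pde6b to Pde6a count ratio of 1.19 (1.15 to 1.24) and 0.99 (0.97 to 1.01).

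The channel subunits differed from each other. Cnga1 (chromosome 5, 72603696 to 72644275, minus strand), which holds the cyclic GMP-gated pore with Cngb1, was at 1114 and 1133 CPM, and the interval of its log2 ratio included 0 (0.02, -0.02 to 0.06). Cnga1 is also the gene with the seed match printed above. Cngb1 (chromosome 8, 95239045 to 95306585, minus strand), the modulatory subunit, was the lowest of the 9 at 331 CPM (317 to 345) and 478 CPM (467 to 489), a log2 ratio of 0.53 (0.46 to 0.60). The Cnga1 to Cngb1 count ratio was 3.37 (3.21 to 3.53) and 2.37 (2.31 to 2.44).

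Sag (chromosome 1, 87803680 to 87845158, plus strand) was the highest of the 9, at 4638 CPM (4586 to 4689) and 6627 CPM (6586 to 6668), a log2 ratio of 0.51 (0.50 to 0.53). It made up 28.1% and 34.4% of the UMIs of the 9 genes in rods, while the share of Gngt1 was 19.2% and 11.4%. Together the 9 genes took 1.65% (1.64 to 1.66) and 1.93% (1.92 to 1.93) of all UMIs in rods.

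Rods were then thinned to 1000 UMIs each, which left out 123 and 118 shallower rods and kept 3761 and 5678. The share of rods with a Gngt1 UMI was 92.8% (91.98 to 93.7, exact Clopper-Pearson) and 81.5% (80.5 to 82.5), against 97.9% and 96.6% unthinned. Shares for Pde6a were 54.9% and 68.0% (72.4% and 89.4% unthinned), and for Cngb1 27.8% and 35.1% (41.9% and 62.3% unthinned). Gnat1 (70.3% and 71.3%), Gnb1 (91.4% and 91.3%), Pde6g (68.5% and 70.6%), Pde6b (62.5% and 67.1%), Cnga1 (64.0% and 60.9%) and Sag (98.3% and 99.2%) differed less. The same thinned shares in the 10 named classes other than rods and cones were 50.6% to 83.9% for Gngt1, 16.9% to 26.3% for Pde6a and 59.9% to 82.8% for Sag in the GFP-labelled library. In the sponge-labelled library they were 23.0% to 58.7%, 8.72% to 19.2% and 32.2% to 69.3%. A UMI of these genes is therefore not a mark of a rod in either library.

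All 9 genes were seen together in 130 of 3761 rods (3.46%) and 353 of 5678 rods (6.22%) at 1000 UMIs, and the median rod showed 6 and 7 of them. Cell-to-cell spread was wider in the sponge-labelled library: the variance over the mean of the summed thinned counts was 2.00 and 3.05, with means of 16.3 and 18.2 UMIs. For single genes it was 1.55 and 1.81 for Gngt1, 1.32 and 1.76 for Sag, and 1.20 and 1.68 for Pde6g, against 1.09 and 1.10 for Pde6a. The part of depth before thinning and of free RNA in this spread was not tested.

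**Figure D2:**
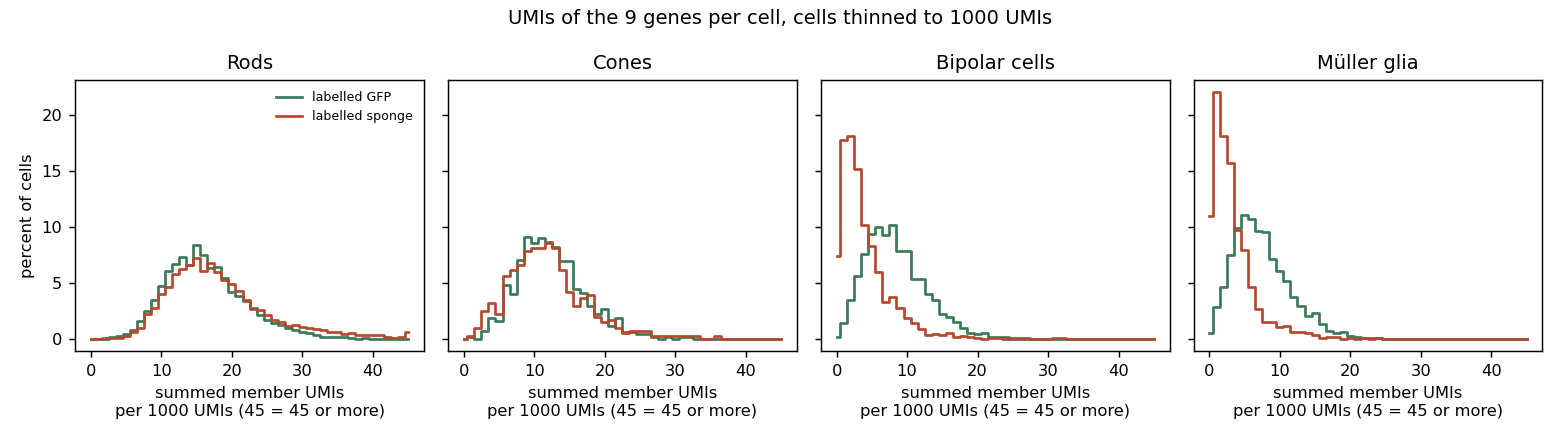
Percent of cells (vertical axis) by the summed UMIs of the 9 genes after thinning each cell to 1000 UMIs (horizontal axis, last bin 45 or more), for rods, cones, bipolar cells and Müller glia, 1 line per library. Rods have medians of 16 and 17 UMIs, whereas Müller glia have medians of 7 and 2 UMIs.

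Depth and mitochondrial share moved with the library, so rods were compared within bins of each. Among rods of 1000 to under 2000 UMIs (2799 and 1643 rods) the median log2 ratio of the 9 genes was 0.02, and among rods of 2000 to under 4000 UMIs (947 and 3444 rods) it was 0.18. Among rods with 10 to 15% mitochondrial UMIs (2024 and 1822 rods) the median was -0.0058, with 4 genes above 0 and 5 below. It was 0.24 in rods at 5 to 10% (405 and 3196 rods) and -0.02 at 15 to 25% (1453 and 338 rods). The higher level of most of the 9 genes was therefore not seen among rods with 10 to 25% mitochondrial UMIs.

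Gngt1, Pde6a, Cngb1 and Sag kept their direction in those 3 bins of mitochondrial share. Gngt1 had log2 ratios of -0.41, -0.71 and -0.80 from the lowest to the highest share. Pde6a had 0.34, 0.32 and 0.29, Sag 0.38, 0.23 and 0.26, and Cngb1 0.37, 0.24 and 0.21. Of the other 5, 4 changed sign between bins. Gnat1 had 0.24, -0.07 and -0.18, Pde6g 0.49, 0.09 and -0.04, Pde6b 0.14, -0.0058 and -0.02, and Gnb1 0.10, -0.12 and 0.03. Cnga1 was below 0 in all 3, at -0.02, -0.23 and -0.31. Bins with few rods of the GFP-labelled library went the other way for Gngt1: 0.09 with 15 rods of at least 4000 UMIs, and 0.30 with 2 rods under 5% mitochondrial UMIs, where Pde6a was at -0.31.

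**Figure D3:**
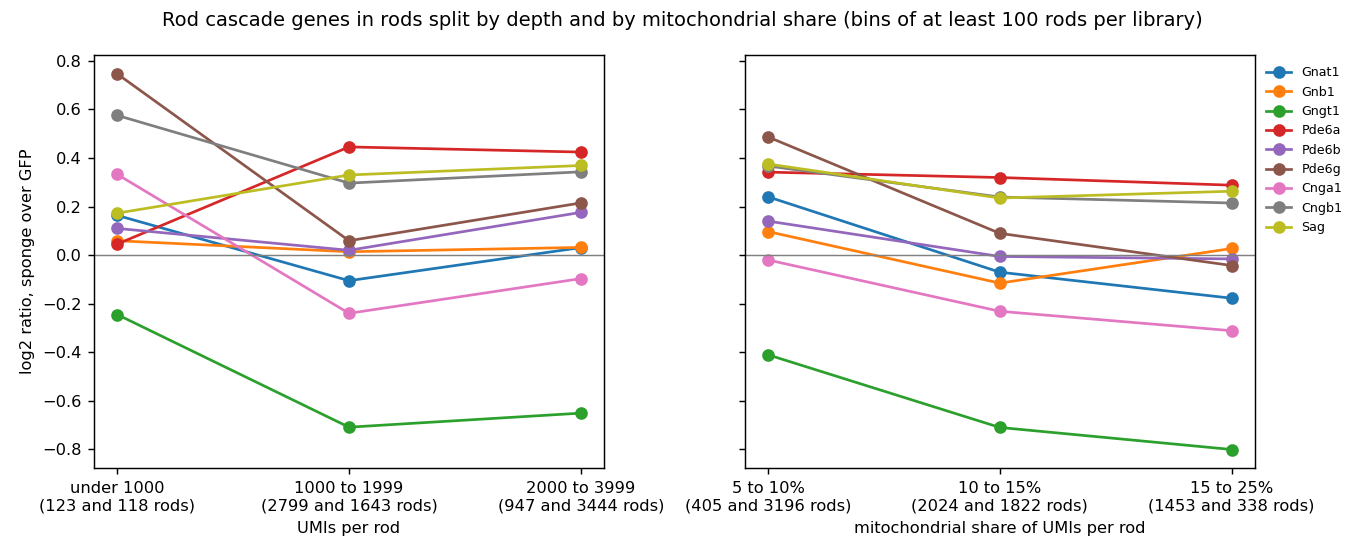
Log2 ratio of CPM, sponge over GFP, for each gene in rods split by UMIs per rod (left) and by mitochondrial share of UMIs (right), for bins with at least 100 rods per library, with rod numbers under each bin. Gngt1 is below 0 in all bins shown, and Pde6a, Cngb1 and Sag are above 0.

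Both rod clusters gave like values. The larger (3401 and 4764 cells) had a median log2 ratio of 0.31 over the 9 genes, and the smaller (483 and 1032 cells) 0.27, with Gngt1 at -0.53 and -0.58.

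Other genes of the rod light response were higher in rods of the sponge-labelled library when all rods were summed. Of these 11 of 11 were above 0, with a median log2 ratio of 0.36. Over all measured genes 9021 of 15804 were above 0, and 1231 of 1859 at 100 CPM or more. Past 1.5-fold higher were 3 of 11, against 9.09% of all measured genes (6.13% at 100 CPM or more). Those 3 were Guca1b, a calcium sensor of guanylate cyclase (372 and 592 CPM, log2 ratio 0.67), Gucy2f, a guanylate cyclase (275 and 425 CPM, 0.63), and Grk1, the kinase of the visual pigment (238 and 363 CPM, 0.61). Pdc, phosducin, which binds transducin beta and gamma, had the lowest ratio of the list, 0.09 (1662 and 1774 CPM). Of the rod identity and outer segment genes 8 of 8 were above 0, with a median of 0.40, and only Prph2, an outer segment rim protein, was past 1.5-fold higher (1092 and 1738 CPM, 0.67). All genes of this second list except Crx are among the markers that named the rods. So are Guca1b, Grk1, Pdc, Rcvrn and Slc24a1 of the light response list. The lists are thus not separate from the naming, and neither is given here by depth or mitochondrial share.

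The cone counterparts of the cascade went the other way in rods. All 8 were below 0, with a median log2 ratio of -0.58, and 4 of 8 were past 1.5-fold lower, although their levels in rods were low. Over all measured genes 6783 of 15804 were below 0 and 13.2% past 1.5-fold lower. Gngt2, the cone transducin gamma subunit, was at 127 and 60.9 CPM (log2 ratio -1.07), Cngb3 of the cone channel at 39.6 and 20.2 CPM (-0.97), and Pde6c, the cone catalytic subunit, at 29.02 and 18.99 CPM (-0.61). Cnga3 was at 1.94 and 0.53 CPM. Summed cone markers in rods were 1030 and 727 CPM, against 1104 and 1027 CPM in the other named classes, and none of the 10 was at 0 in rods. Their part in the values above was not tested.

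Outside rods, the 9 genes were found in every class. Their level was a median of 39.9% of the rod level over the 90 pairs of class and gene in the GFP-labelled library (10 classes other than rods and cones) and 16.3% in the sponge-labelled library. Pericytes and smooth muscle had the highest summed level, 53.8% and 25.3% of that in rods. RPE (retinal pigment epithelium) with 21.3% and ocular surface epithelium with 22.6% had the lowest in the GFP-labelled library, and ocular surface epithelium with 7.36% in the sponge-labelled library. Each of the 90 pairs had a lower CPM in the sponge-labelled library, with a median log2 ratio of -0.999. The summed log2 ratio ran from -1.40 in ocular surface epithelium to -0.67 in amacrine cells, against 0.22 in rods.

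**Figure D4:**
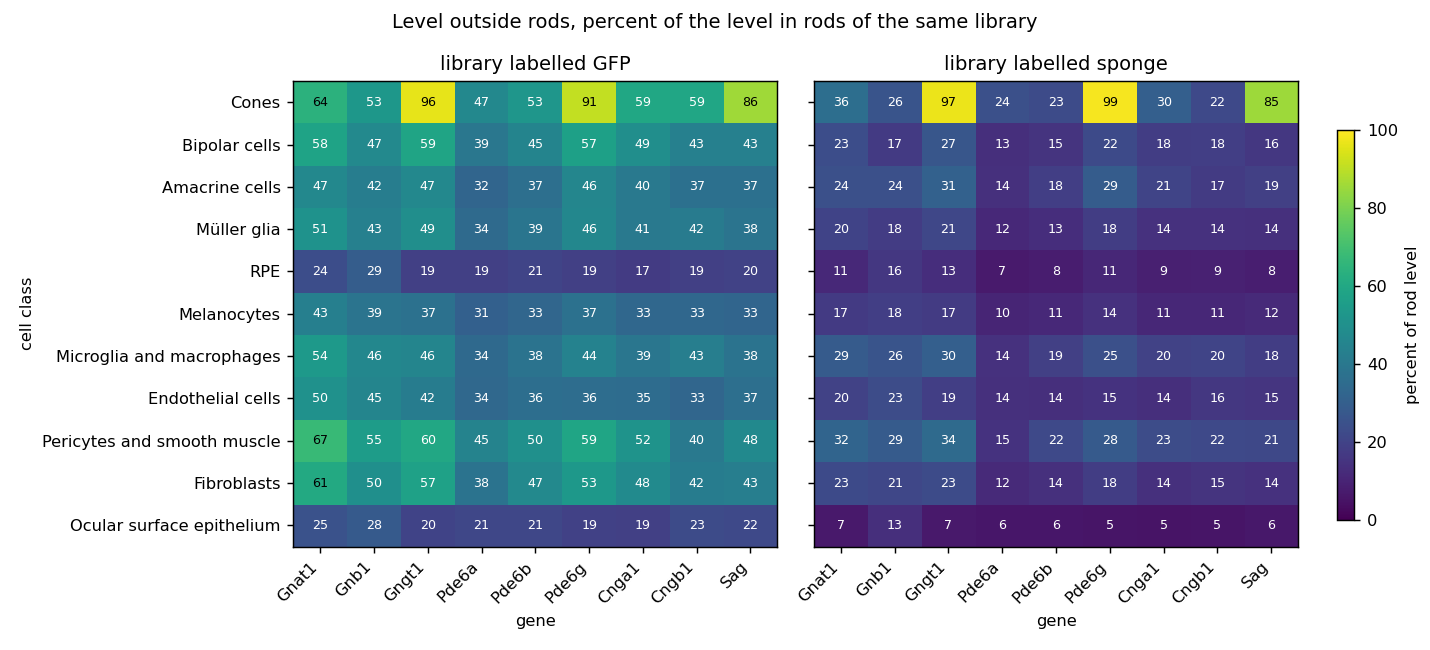
Level of each gene (columns) in each named class other than rods (rows) as a percent of its CPM in rods of the same library, for the GFP-labelled library (left) and the sponge-labelled library (right). Cones stand out for Gngt1, Pde6g and Sag, and the other classes are lower in the sponge-labelled library for all 9 genes.

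Counted per cell and not as CPM, the 9 genes were not lower overall in the sponge-labelled library. A cell of these 10 classes held a median of 16 to 23 UMIs of the 9 genes in the GFP-labelled library and of 17 to 28 in the sponge-labelled library. Over the same classes median depth ran from 2079 to 6284.5 UMIs and from 3284 to 24413.5 UMIs, so that the count of the 9 genes per cell varied far less between classes than their depth. The median count per cell was higher in the sponge-labelled library in 5 of the 10 classes, equal in 3 (bipolar cells, Müller glia and melanocytes) and lower in 2 (RPE, 23 and 20 UMIs, and microglia and macrophages, 19 and 18 UMIs). The mean count per cell was higher there in all 10 classes, and so were 75 of the 90 pairs of class and gene, with a median log2 ratio of 0.37. Median depth was higher in the sponge-labelled library in 9 of the 10 classes, the exception being RPE (6284.5 and 3302 UMIs). Free RNA in the cell suspension is known to add UMIs to every droplet, whatever cell it holds. The parts of free RNA, doublets and expression in these counts were not tested.

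**Figure D5:**
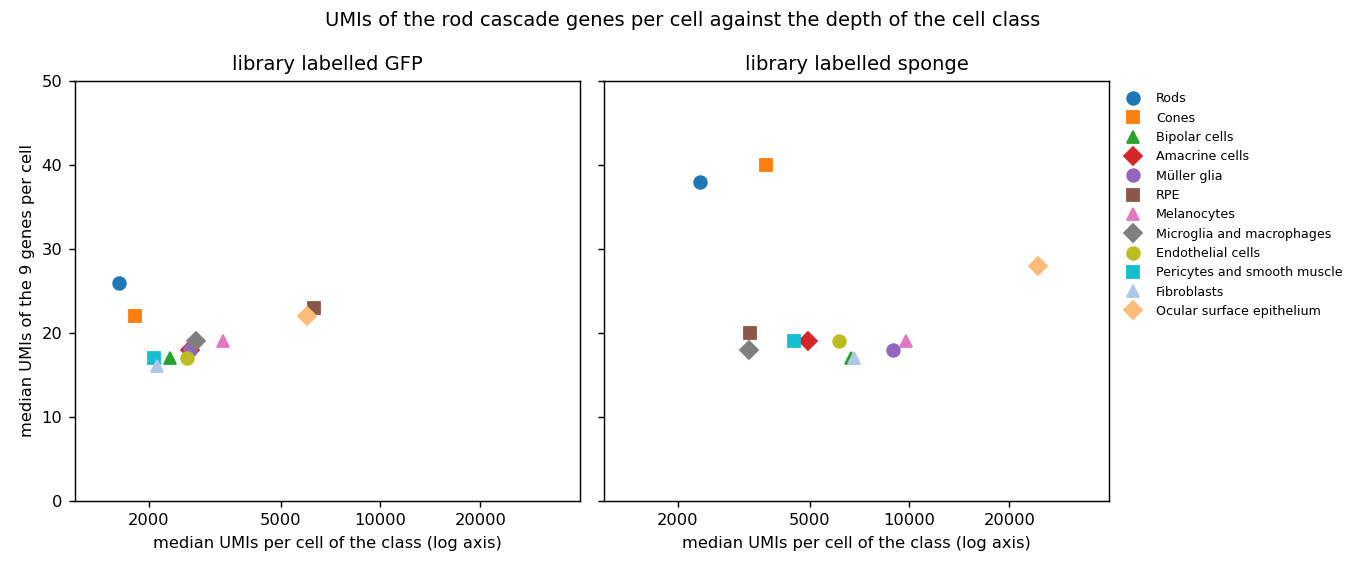
Median UMIs of the 9 genes per cell (vertical axis) against the median UMIs per cell of the class (log axis), 1 point per named class, for the GFP-labelled library (left) and the sponge-labelled library (right). Classes other than rods and cones lie between 16 and 23 UMIs on the left and between 17 and 28 on the right.

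Rods held a median of 26 and 38 UMIs of the 9 genes, so that they stood only a little above other classes in the GFP-labelled library. For each gene the median class mean was 59.4% (Pde6a) to 88.2% (Gnat1) of the mean per rod in the GFP-labelled library, and 36.3% (Pde6a) to 66.9% (Gngt1) in the sponge-labelled library. Gngt1 was the gene with the lower count per cell in the sponge-labelled library: it was lower in 9 of 10 classes, with a median of 4.49 and 3.80 UMIs per cell. Sag, with 5.27 and 7.85 UMIs, and the remaining genes except Pde6b and Cnga1 were higher in 10 of 10. Pde6b was higher in 9 of 10 and Cnga1 in 5 of 10, with medians of 1.36 UMIs in each library. No correction for free RNA was made, and its part in the rod values was not tested.

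Thinning all cells to 1000 UMIs reduced the contrast outside rods. The median level was then 42.3% and 23.3% of the rod level, the median log2 ratio was -0.80, and 79 of 90 pairs remained lower in the sponge-labelled library. In RPE all 9 genes were higher in the sponge-labelled library after thinning (median log2 ratio 0.42), having all been lower in summed counts (median -0.82), so no direction is given for RPE. Müller glia, the main glia of the retina, were at 43.02% and 15.96% of the summed rod level, and at matched depth their median log2 ratio was -1.08. Bipolar cells, which receive the rod signal, were at 49.5% and 18.6%, with -0.97 at matched depth.

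The 9 genes did not keep one ratio to rods within a class. In Müller glia of the GFP-labelled library, Pde6a was at 34.4% (33.0 to 35.9) of its rod level and Gnat1 at 50.9% (49.4 to 52.5). In the sponge-labelled library the lowest was again Pde6a, at 11.5% (11.1 to 12.0), and the highest Gngt1, at 21.3% (20.8 to 21.8). Pde6a had the lowest percent of the 9 in 6 of 10 classes and 8 of 10. Gnat1, Gngt1 and Pde6g, whose gene spans are 5.24, 3.65 and 5.90 kb, all lay above Pde6a, Pde6b, Cnga1, Cngb1 and Sag, whose spans are 40.6 to 69.6 kb, in 7 of 10 classes and 8 of 10. Gnb1 (67.9 kb) was left out of this count after its values were seen. It was among the 3 highest percents in 5 of 10 classes and 7 of 10, so the count does not describe all long genes. Why the genes differ was not tested.

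Gnb1, with a span of 67.9 kb, stood apart from the other long genes. It had the highest percent of the 9 in RPE (29.4% and 16.3%, against 17.4 to 23.5% and 7.08 to 12.9% for the others) and in ocular surface epithelium (28.4% and 13.4%, against 19.1 to 25% and 5.27 to 6.93%). Its mean count per cell ranged from 3.13 to 5.98 UMIs over the 10 classes in the GFP-labelled library and from 3.37 to 12.6 in the sponge-labelled library, whereas that of Gngt1 ranged from 4.12 to 4.60 and from 3.59 to 4.59. The Gnb1 product is a beta subunit of many G proteins and is known from most cell types.

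Cones (689 and 408 cells, median depth 1825 and 3700 UMIs) held 3 of the 9 genes near the rod level. Gngt1 was at 3049 and 2125 CPM, 96.1% (92.9 to 99.4) and 97.0% (93.7 to 100.4) of its rod level. Pde6g was at 1159 and 1642 CPM, 90.7% and 98.7%, and Sag at 3981 and 5654 CPM, 85.8% and 85.3%. The other 6 genes were at 46.7 to 64.2% and 22.2 to 36.2%, with Gnat1 the highest and, in the sponge-labelled library, Cngb1 the lowest. The gap between these 3 genes and the other 6 was thus wider in the sponge-labelled library, where other classes also had a lower CPM.

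Between the libraries, the CPM of Gngt1, Pde6g and Sag differed in cones much as in rods. The log2 ratios were -0.52, 0.50 and 0.51 in cones and -0.53, 0.38 and 0.51 in rods. Counted per cell the 2 classes were less alike, with log2 ratios of 0.56, 1.59 and 1.59 in cones and 0.05, 0.97 and 1.10 in rods. On the CPM scale the other 6 genes were lower in cones of the sponge-labelled library (-0.96 to -0.37), as in the classes without a photoreceptor identity. Per cell these 6 were higher in cones of that library, with log2 ratios of 0.13 (Cnga1) to 0.71 (Pde6a). The Sag to Gnat1 count ratio was 4.56 and 9.81 in cones, 3.41 and 4.16 in rods, and 2.57 and 2.84 in Müller glia. Cones were named as a cluster on genes that did not include the 9, so these values are a description of that cluster.

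Across the 24 class levels (12 named classes in each library) 17939 genes were compared with the mean of the 9. Those whose level ran most like it were Rp1 (Pearson r 0.995), Pdc (0.992) and Nr2e3 (0.992). Pcmtd2 and Reep6 (each 0.983) were also among the genes most like that mean. Single members had r of 0.95 (Gnb1) to 0.99 (Cnga1) with that mean, which they enter. The points share libraries and rods and carry no test. Rp1, Pdc, Nr2e3 and Reep6 are rod markers used for naming, and Pcmtd2 is not. Clusters left without a name are described in the closing section where the CPM of Gngt1 was at rod levels.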

How the data were processed

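Both 10x Genomics libraries were analysed from the UMI count matrices that the authors deposited, made with Cell Ranger 7.0.0 on mm10 per the submitters' processing notes. Cell calling and the annotation release were not given in the sources used. The feature lists hold an added eGFP sequence. The cell filter required 300 genes and 500 UMIs, and a mitochondrial share no higher than 25% (kept: 39285 of 39461 and 23200 of 23267).

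Counts were scaled to 10000 per cell, logged and clustered jointly (scanpy 1.11.5, leidenalg 0.10.2, 2000 variable genes, 30 components, 15 neighbours, resolution 1, 33 clusters). A cluster was named where at least 3 markers of a class were 2-fold over the median cluster, the second class scored under 0.45 of the first, and the score reached 0.75 of the best cluster of that class. These thresholds were set after clusters were seen, and how the number of rods depends on them is not given here. Erythroid and B or plasma cells were not named as classes, since haemoglobin and immunoglobulin RNA led clusters of low depth. Igkc also led the larger of the clusters named fibroblasts. Some unnamed clusters mix genes of several types, and others are led by neuronal genes alone. The doublet caller (Scrublet in scanpy) marked 0 cells in each library and so did not work, and no doublets were removed. No correction for free RNA was made.

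CPM were computed from summed UMIs with exact Poisson intervals. Log2 ratios had 0.5 added to each count and an exact binomial interval of the 95% level. Thinning drew UMIs without replacement. Genes with at least 20 UMIs over both libraries' rods counted as measured. The code for ratios and intervals was tested on simulated data. Motifs and 3′ UTR matches used RefSeq promoters and GENCODE models on GRCm38.

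The genes and lists were chosen with earlier results of these data known. The 9 genes, 8 cone counterparts, 11 other light response genes and 8 rod genes were named by list, with values for those furthest from 0, and the genes most alike by correlation. 1 item among the 6 most alike genes is not reported here. Alternatives covered scaling, weighting, thinning, cell filter, resolution, variable genes, cell naming, doublet scores, and, chosen after seeing the data, shared barcodes, mitochondrial share and cluster membership.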

Additional observations from a re-analysis of the deposited data

Results flagged for a closer look

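The summed CPM of the 9 genes had a log2 ratio, sponge over GFP, of 0.22 in rods and of -1.40 to -0.67 in the 10 named classes other than rods and cones. It drew attention because on the CPM scale the ratios in rods and elsewhere have opposite signs. Per cell the mean count was higher in the sponge-labelled library in rods (28.6 and 50.03 UMIs) and in all 10 classes, and in RPE the CPM ratios changed sign after thinning. The difference was not tested, since each group is 1 library.

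On the CPM scale, unnamed clusters outside the rod class held Gngt1 at rod levels in the sponge-labelled library. It was at 2516 CPM in cluster 1 and 2764 CPM in cluster 3, which are 115% and 126% of its CPM in rods. Rods of that library were deeper, with a median of 2341 UMIs, and counts per cell are not given for these clusters. Cluster 1 (2174 and 4162 cells) was led by Igkc, Igha and haemoglobin genes, with median depths of 1424 and 1219 UMIs. Cluster 3 (2819 and 1527 cells) was led by haemoglobin genes, Igkc and rod genes such as Pdc, with median depths of 1509 and 1227 UMIs. Pde6a was lower there, at 57.4% and 37.3% of its rod level in cluster 1 and at 72.0% and 44.1% in cluster 3. What these droplets hold was not tested.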

How the results depend on the processing

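With 1 library per group, an alternative shows how far a value moves, not whether it would recur. The median log2 ratio of the 9 genes in rods (0.30) was 0.21 with median-of-ratios scaling, 0.25 with rods weighted equally, 0.23 thinned to 1000 UMIs, 0.23 thinned to 500, 0.20 thinned to 2000, 0.26 at resolution 2, 0.38 with cells named by highest marker score, 0.24 in rods with 5 to 10% mitochondrial UMIs, 0.22 scaled to UMIs outside mitochondrial genes and, changing sign, -0.0058 in rods with 10 to 15% mitochondrial UMIs. In those last rods 4 of 9 genes were above 0 in place of 8, with Gnat1 at -0.071, Gnb1 at -0.12 and Pde6b at -0.0058. Against 0 genes past 1.5-fold higher, 3 passed with cells named by highest marker score, 1 without the top 10% of doublet scores and 2 with cluster 3 added. Against 0 past 1.5-fold lower, 1 gene passed under each of median-of-ratios scaling, equal weighting, thinning to 1000 and to 500 UMIs, 10 to 15% mitochondrial UMIs and scaling outside mitochondrial genes. Cnga1 was -0.06 with median-of-ratios scaling, which lowers every ratio in rods by 0.09. The median difference in thinned shares (1.05 percentage points) was 4.37 at 500 UMIs, 0.079 at 2000 UMIs, where 5 of 9 genes in place of 6 had the higher share, and 6.25 unthinned. Outside rods, the median percent of the rod level (39.9 and 16.3) was 42.3 and 23.3 thinned to 1000 UMIs, 43.0 and 23.3 thinned to 500, and 33.8 and 14.5 with the stricter cell filter, and the median log2 ratio (-0.999) was -0.80 and -0.83 at those 2 depths. Thinning to 500 UMIs kept every rod (3884 and 5796), to 1000 kept 3761 and 5678, and to 2000 kept 962 and 4035. The cause of these changes was not tested. With no minimum of counts the share of genes past 1.5-fold lower in rods was 22.6%.

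None of the 9 genes was among the variable genes, so keeping them would have changed nothing and they were forced in instead. The stricter filter left 402 and 3042 rods. Pde6g then had the highest log2 ratio of the 9 genes in rods (0.58), with Pde6a at 0.41. With the 9 genes forced in, Pde6g was again the highest (0.50), with Pde6a at 0.40. Gngt1 was at -0.38 under each of these settings. No paired analysis was possible because each group is 1 library with no replicate numbers.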
